A study of Mus musculus with 18 samples.

Results

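Regulatory T cells that overexpressed the whole miR-23a cluster (cluster Tg) were set against regulatory T cells that overexpressed its member miR-27 alone (miR-27 Tg). The comparison used 3 libraries of each genotype, 6 of the 18 in the series, with the 3 wild-type (WT) libraries as a level to read both against. It covered every gene with at least 1 RPKM (a read count divided by transcript length and by the library's mapped reads) in 3 or more of the 18 libraries, which was 11520 of the 23949 entries with a unique symbol. All libraries were total RNA of FACS-sorted CD4+CD25hi cells from C57BL/6 mice, and overexpression was restricted to T cells. The other 9 libraries, of miR-23 Tg, miR-24 Tg and mice without both cluster loci (DKO), entered only the estimate of the spread between libraries. The labels give neither the age or sex of the mice nor which animals went into a library, so p-values measure the spread between libraries, which may be technical.

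Regulatory T (Treg) cells restrain immune responses and depend on the transcription factor Foxp3. The 3 microRNAs of the cluster are cut from a shared precursor transcript. A mature microRNA guides a silencing complex to messenger RNAs whose 3′ untranslated region (3′ UTR) pairs with its seed, the bases from position 2 to position 8, and such pairing lowers the level or the translation of the transcript. miR-23 and miR-27 have related but different seeds, and that of miR-24 is unrelated. Both genotypes overexpress miR-27, and cluster Tg cells overexpress miR-23 and miR-24 as well.

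The mature sequences are shown because the seed, in capitals, decides which transcripts count as carrying a match (RefSeq, GRCm38.p6, chromosome 8, plus strand, 5′ to 3′).
miR-23a-3p: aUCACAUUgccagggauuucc
miR-27a-3p: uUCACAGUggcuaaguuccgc
miR-24-3p: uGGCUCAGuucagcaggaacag
The DNA letters that pair with these seeds in a 3′ UTR are AATGTGA for miR-23, ACTGTGA for miR-27 and CTGAGCC for miR-24.

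The hairpin entries of the 3 microRNAs lie side by side on chromosome 8, with Mir23a at chr8:84208518-84208592, Mir27a at chr8:84208672-84208758 and Mir24-2 at chr8:84208815-84208921. Their values count reads over the hairpin and not the mature microRNA. Mir23a had 22900, 17106 and 11691 RPKM in cluster Tg cells, against 252, 244 and 88.1 RPKM in miR-27 Tg cells and at most 155 RPKM in WT cells. Mir24-2 had 7943, 6413 and 6052 RPKM in cluster Tg cells, against 0, 11.3 and 48.9 RPKM in miR-27 Tg cells and at most 50.3 RPKM in WT cells. Both entries were therefore high in every cluster Tg library and far lower in every miR-27 Tg library, where 2 Mir23a values lay above the highest WT value. Mir27a had 24076, 18298 and 13710 RPKM in cluster Tg cells, against 76991, 79108 and 50014 RPKM in miR-27 Tg cells and at most 347 RPKM in WT cells. The group means of Mir27a were 18695 ± 5194 RPKM in cluster Tg cells and 68704 ± 16221 RPKM in miR-27 Tg cells (SD, n = 3 each), so this entry was 3.68-fold higher in miR-27 Tg cells. No library of either genotype crossed into the other for any of the 3 entries. The 2-sided exact permutation p was 0.1 for each, the smallest that 3 against 3 libraries allow. The limma fit across all genes called Mir24-2 (adjusted p = 0.0062) but not Mir23a (0.084) or Mir27a (0.54). That fit shares 1 log2 spread over all 18 libraries, among them WT libraries with 0 to 347 RPKM of Mir27a. Its standard errors, 2.18 for Mir23a and 1.71 for Mir27a, therefore do not measure the spread within the 2 genotypes alone. The paralogous locus on chromosome 13 (Mir23b, Mir27b and Mir24-1) was at or next to 0 throughout.

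**Figure D1:**
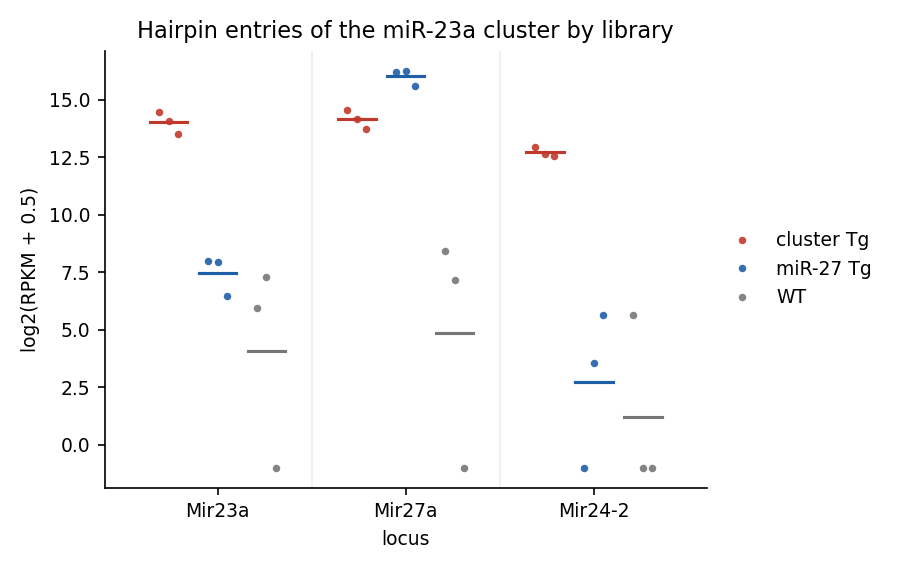
RPKM of the 3 hairpin entries on a log2 scale (vertical axis, 0.5 RPKM added) in 3 libraries each of cluster Tg, miR-27 Tg and WT; points are libraries and bars are group means. Mir23a and Mir24-2 stand high in cluster Tg alone, whereas Mir27a is high in both transgenic genotypes, with the 3 miR-27 Tg libraries (50014 to 79108 RPKM) above the 3 cluster Tg libraries (13710 to 24076 RPKM).

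The sorted cells carried the markers of their label. Foxp3 had 257, 283 and 207 RPKM in cluster Tg cells, against 328, 290 and 197 RPKM in miR-27 Tg cells. Il2ra, which encodes CD25, had 208, 200 and 248 RPKM in cluster Tg cells, against 236, 255 and 173 RPKM in miR-27 Tg cells. Libraries of the 2 genotypes overlapped for both genes. The labels give no sex, and the libraries were of mixed kind: Xist exceeded the Y-linked genes in cluster Tg libraries 1 and 2 and in miR-27 Tg library 1, and the reverse held in cluster Tg library 3 and miR-27 Tg libraries 2 and 3. Markers of other cell types were not at 0. The summed level of 19 B cell markers was 292 to 391 RPKM in cluster Tg libraries, 455 to 910 RPKM in miR-27 Tg libraries and 145 to 215 RPKM in WT libraries. The genotypes did not overlap in this sum, to which abundant markers add the most. In the mean log2 level of the 18 markers tested, cluster Tg library 3 (2.50) was above miR-27 Tg library 1 (2.43), so these 2 genotypes overlapped. For 18 myeloid markers the sums were 138 to 171 RPKM in cluster Tg and 124 to 256 RPKM in miR-27 Tg libraries, and for 9 erythroid and platelet markers 5.18 to 13.0 RPKM in cluster Tg and 8.82 to 182 RPKM in miR-27 Tg libraries. The part of these cells in the results below was not tested beyond the covariate fit given next. In bulk RNA, fewer cells of a type and less RNA per cell cannot be told apart.

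Cluster Tg and miR-27 Tg cells differed at 789 of the 11520 genes, 6.85%, at a Benjamini-Hochberg adjusted p under 0.05 in one limma fit of all 18 libraries on log2(RPKM + 0.5). Of these, 403 (3.5%) were higher and 386 (3.35%) lower in cluster Tg cells. The changes were modest: the median size among called genes was 0.48 on the log2 scale with a median standard error of 0.11, and 34 higher and 36 lower genes changed at least 2-fold. The median difference over all genes was 0.01. The libraries of the 2 genotypes did not overlap at 774 of the 789 called genes, and did not overlap at 1472 (12.8%, higher) and 1326 (11.5%, lower) of all genes. Against WT, cells of each genotype had more calls than against each other, 2806 genes (24.4%) for cluster Tg and 3294 genes (28.6%) for miR-27 Tg. Among the 403 higher genes the cluster Tg mean was also above the WT mean at 304 and at or under it at 99. Among the 386 lower genes it was also below the WT mean at 271 and at or above it at 115.

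The number of calls depended on single libraries and on how the spread was estimated. Leaving out a library left 156 higher and 155 lower genes without cluster Tg library 1, 264 and 245 without cluster Tg library 2, 131 and 137 without miR-27 Tg library 2, and 156 and 146 without miR-27 Tg library 3, whereas 551 and 668 were called without miR-27 Tg library 1. With only the 6 libraries of the 2 genotypes in the fit, 3 higher and 2 lower genes passed, although each of the 789 genes had an unadjusted p under 0.05 there. With the mean B cell marker level as a covariate, 27 higher and 27 lower genes passed. The 735 calls that ended under that covariate all kept their sign, with a median size of 0.46 without and 0.40 with the term. With a term for libraries that expressed Xist, 266 higher and 243 lower genes passed, 502 of them among the 789.

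Of the 12 largest rises in cluster Tg cells, those that encode cell-surface proteins are given first. Cd86, a ligand of the costimulatory receptor CD28 and of CTLA-4, had 29.6, 21.01 and 26.9 RPKM in cluster Tg cells, against 12.6, 8.02 and 7.55 RPKM in miR-27 Tg cells and 9.05 to 11.6 RPKM in WT cells (log2 difference 1.44, SE 0.20, adjusted p = 0.0015). Every cluster Tg library was above every miR-27 Tg and WT library. Cd70, the ligand of the TNF receptor family member CD27, had 4.91, 2.48 and 1.42 RPKM in cluster Tg cells, against 0.513, 0.317 and 0.718 RPKM in miR-27 Tg cells and at most 0.402 RPKM in WT cells (1.65, SE 0.35, adjusted p = 0.014). Ms4a4c, a membrane protein of the CD20 family, had 79.4, 47.8 and 54.9 RPKM in cluster Tg cells, against 24.7, 22.2 and 24.4 RPKM in miR-27 Tg cells (1.30, SE 0.17, adjusted p = 0.00097). The miR-27 Tg libraries lay close to the WT libraries here, which had 18.7 to 20.7 RPKM. Crtam, a receptor of activated cytotoxic T cells and NK cells, had 6.91, 4.40 and 2.18 RPKM in cluster Tg cells, against 1.34, 1.05 and 1.95 RPKM in miR-27 Tg cells, a narrow gap between the genotypes (adjusted p = 0.035). Ildr1, an immunoglobulin-like membrane receptor, had 9.74, 8.80 and 5.55 RPKM in cluster Tg cells, against 3.95, 2.39 and 2.28 RPKM in miR-27 Tg cells.

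Dapl1, a gene of resting T cells, was 3.92-fold higher in cluster Tg cells. Its values were 39.9, 31.0 and 52.7 RPKM in cluster Tg cells, against 6.68, 11.2 and 12.8 RPKM in miR-27 Tg cells and 7.03 to 13.8 RPKM in WT cells (log2 difference 1.97, SE 0.28, adjusted p = 0.0015). The miR-27 Tg and WT libraries covered the same range and the cluster Tg libraries stood above both. Cst7, which encodes cystatin F, an inhibitor of the proteases that activate granzymes, had 111, 118 and 98.2 RPKM in cluster Tg cells, against 51.0, 43.5 and 40.0 RPKM in miR-27 Tg cells (1.27, SE 0.11, adjusted p = 3.19e-05). WT cells had 86.1 to 93.1 RPKM, so for this gene it was miR-27 Tg that stood far from WT. Ciart, a repressor in the circadian clock, had 13.6, 13.3 and 5.34 RPKM in cluster Tg cells, against 3.20, 2.98 and 1.26 RPKM in miR-27 Tg cells. The host transcript of a small nucleolar RNA, Snhg9, had 7.38, 9.86 and 5.29 RPKM in cluster Tg cells, against 2.89, 1.40 and 0 RPKM in miR-27 Tg cells, and 5.58 to 8.89 RPKM in WT cells. Rasd1, a Ras-like GTPase, had 6.24, 6.10 and 2.17 RPKM in cluster Tg cells, against 1.11, 1.26 and 0.119 RPKM in miR-27 Tg cells. Nrbp2 and Glt28d2 made up the 12, with log2 differences of 1.28 and 1.26. Cd86, Cst7, Dapl1, Ildr1, Ms4a4c and Nrbp2 passed whichever of the 6 libraries was left out. With the B cell marker level as a covariate Cd86, Cst7, Dapl1 and Ms4a4c passed and the other 8 did not. Ciart, Crtam, Glt28d2 and Rasd1 lost the call without cluster Tg library 1 or 2 or miR-27 Tg library 2 or 3. Crtam lost it also without miR-27 Tg library 1, Snhg9 without cluster Tg library 1 or 2 or miR-27 Tg library 3, and Cd70 without cluster Tg library 1 or miR-27 Tg library 2.

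Of the 12 largest falls, 5 genes whose products bind or organise actin or lie at actin fibres are given first, an arrangement made after their values were seen. Myo6, a myosin that moves towards the minus end of actin filaments, had 0.758, 0.742 and 1.21 RPKM in cluster Tg cells, against 3.62, 4.75 and 5.93 RPKM in miR-27 Tg cells and 2.50 to 4.56 RPKM in WT cells (log2 difference −1.90, SE 0.22, adjusted p = 0.0004). Every cluster Tg library was below every library of the other 2 genotypes. Marcksl1, a membrane-bound protein that binds actin and calmodulin, had 26.2, 26.0 and 17.8 RPKM in cluster Tg cells, against 54.9, 66.6 and 65.8 RPKM in miR-27 Tg cells (−1.42, SE 0.16, adjusted p = 0.00032). WT cells had 18.6 to 21.6 RPKM, close to cluster Tg. Luzp1, a leucine zipper protein found at actin fibres and centrosomes, had 2.07, 1.82 and 1.73 RPKM in cluster Tg cells, against 5.93, 5.17 and 5.62 RPKM in miR-27 Tg cells and 0.937 to 1.20 RPKM in WT cells (−1.36, SE 0.11, adjusted p = 3.19e-05). It was the only one of the 70 called genes named by the rules, apart from the microRNA entries, that passed under all 15 alternative fits. Pdlim4, a LIM-domain protein that binds alpha-actinin, had 3.47, 1.62 and 1.48 RPKM in cluster Tg cells, against 4.01, 7.94 and 11.7 RPKM in miR-27 Tg cells. Pstpip2, which organises membranes and actin, had 0.576, 2.23 and 3.59 RPKM in cluster Tg cells, against 5.30, 5.78 and 4.80 RPKM in miR-27 Tg cells.

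The other 7 of the largest falls had varied roles. H2afx, the histone variant phosphorylated at DNA breaks, had 18.2, 19.99 and 15.8 RPKM in cluster Tg cells, against 31.2, 52.9 and 49.6 RPKM in miR-27 Tg cells and 20.8 to 24.9 RPKM in WT cells (log2 difference −1.26, SE 0.28, adjusted p = 0.017). Hist1h4d, a histone H4 gene, had 0.554, 0.987 and 1.10 RPKM in cluster Tg cells, against 3.44, 3.51 and 2.28 RPKM in miR-27 Tg cells (−1.37, SE 0.21, adjusted p = 0.0022). Histone H4 genes are near-identical, so reads may have been divided among copies. Rec8, a meiotic cohesin subunit, had 5.72, 7.79 and 7.49 RPKM in cluster Tg cells, against 38.6, 12.6 and 14.6 RPKM in miR-27 Tg cells, the highest value being miR-27 Tg library 1. Pif1, a DNA helicase, had 0.788, 0.935 and 1.45 RPKM in cluster Tg cells, against 1.59, 4.38 and 4.60 RPKM in miR-27 Tg cells. Slpi, a secreted protease inhibitor also made by myeloid cells, showed the largest fall: 0.452, 0.302 and 0.487 RPKM in cluster Tg cells, against 1.51, 4.38 and 13.4 RPKM in miR-27 Tg cells. Its order within miR-27 Tg is that of the mean log2 level of the myeloid markers, which was 1.51, 2.48 and 3.28 in miR-27 Tg libraries and 1.90, 1.23 and 1.33 in cluster Tg libraries, and the part of those cells was not tested. Tgm2, a transglutaminase, had 1.99, 1.59 and 2.10 RPKM in cluster Tg cells, against 5.67, 5.70 and 6.54 RPKM in miR-27 Tg cells and 4.31 to 14.9 RPKM in WT cells. Hap1, a protein that binds huntingtin, had 1.45, 2.81 and 2.24 RPKM in cluster Tg cells, against 7.54, 5.70 and 6.35 RPKM in miR-27 Tg cells. Hist1h4d, Luzp1, Marcksl1 and Myo6 passed whichever library was left out and with the B cell marker level as a covariate, under which the other 8 did not. Pif1, Slpi and Tgm2 lost the call without cluster Tg library 1 or 2 or miR-27 Tg library 2 or 3, and Slpi and Tgm2 also without cluster Tg library 3. Pdlim4 lost it without cluster Tg library 2 or 3, H2afx without cluster Tg library 1, and both, like Pstpip2, without miR-27 Tg library 2 or 3. Hap1 and Rec8 lost it without cluster Tg library 1.

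**Figure D2:**
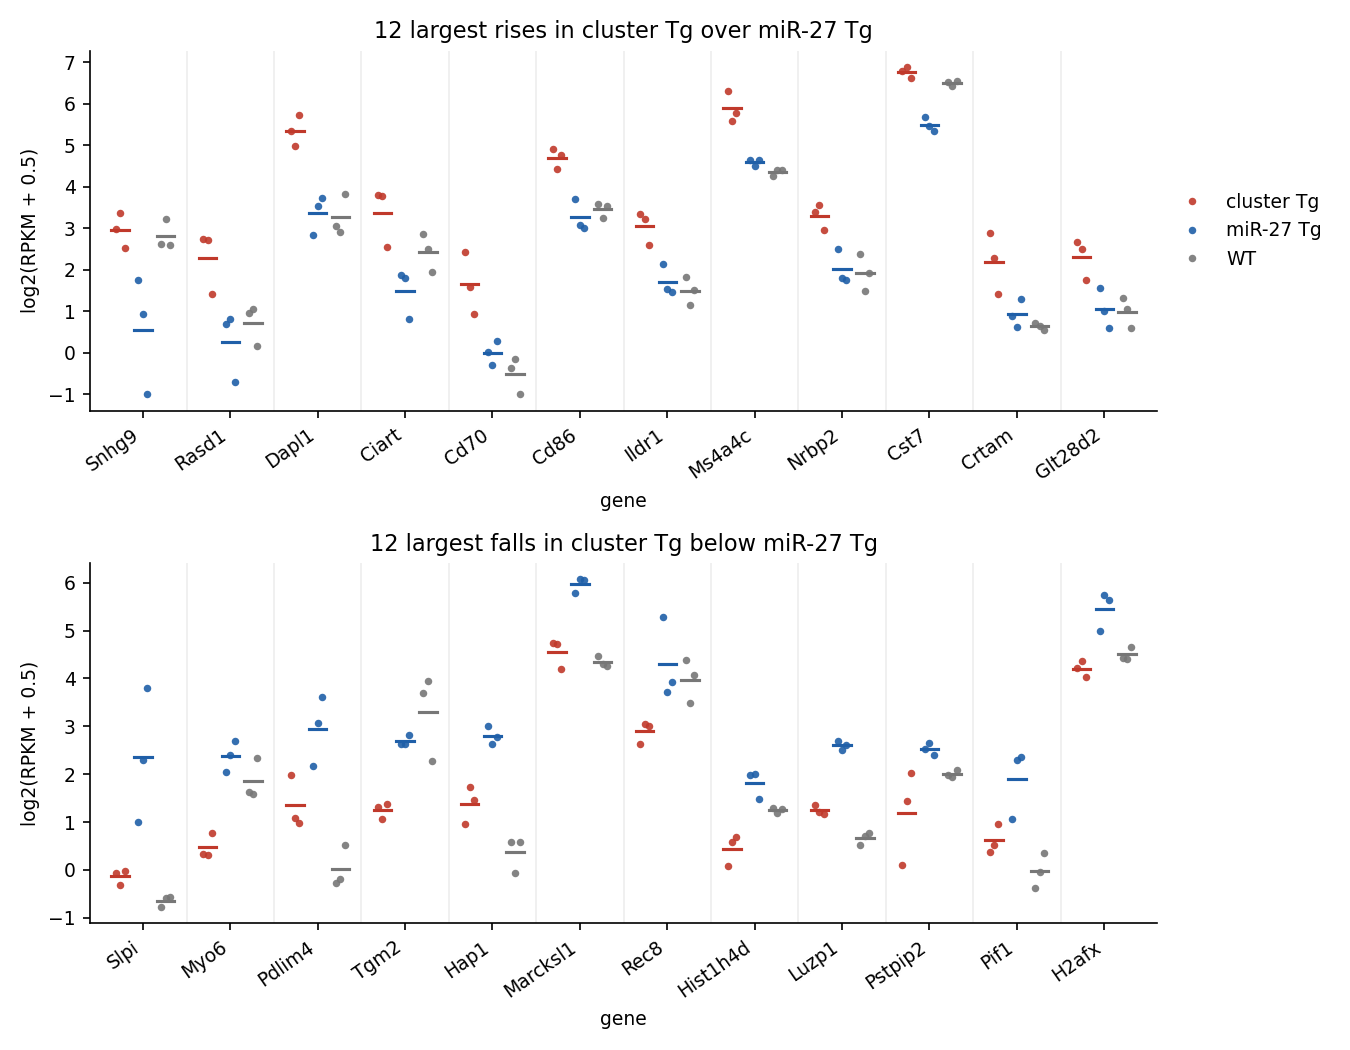
RPKM on a log2 scale (vertical axis, 0.5 RPKM added) of the 12 genes that rose and the 12 that fell the most, in 3 libraries each of cluster Tg, miR-27 Tg and WT; points are libraries and bars are group means. Genes were chosen for groups that do not overlap, so the gap between cluster Tg and miR-27 Tg is a description; WT lies near miR-27 Tg for Dapl1 and Ms4a4c and near cluster Tg for Cst7 and Marcksl1.

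Among genes of Treg identity and effector function, calls went in both directions. Of 28 genes of Treg identity, 2 rose, 2 fell and 24 did not pass, with a median log2 difference of −0.06 beside 0.01 over all genes tested, of which 3.5% rose and 3.35% fell. Tnfrsf18, which encodes the costimulatory receptor GITR, had 352, 360 and 328 RPKM in cluster Tg cells, against 287, 254 and 206 RPKM in miR-27 Tg cells (log2 difference 0.49, SE 0.11, adjusted p = 0.022). Itgae, the integrin chain CD103 that binds E-cadherin, had 108, 94.2 and 72.5 RPKM in cluster Tg cells, against 67.7, 26.9 and 31.0 RPKM in miR-27 Tg cells (1.22, SE 0.30, adjusted p = 0.026). Both genes were higher in every cluster Tg library. Ecm1, a secreted matrix protein that supports the exit of T cells from lymph nodes, had 55.3, 70.4 and 61.5 RPKM in cluster Tg cells, against 97.2, 97.9 and 82.8 RPKM in miR-27 Tg cells and 125 to 168 RPKM in WT cells. Socs2, an inhibitor of cytokine signalling, had 49.3, 34.7 and 42.9 RPKM in cluster Tg cells, against 68.6, 73.6 and 56.9 RPKM in miR-27 Tg cells. Itgae and Tnfrsf18 lost their calls without cluster Tg library 1 or 2 or miR-27 Tg library 2 or 3, Ecm1 without cluster Tg library 1 or miR-27 Tg library 2, and Socs2 without any library except cluster Tg library 1. With the B cell marker level as a covariate, of these 4 genes Ecm1 alone passed. Gpr83, a G protein-coupled receptor enriched in Treg cells, had 19.2, 31.8 and 55.1 RPKM in cluster Tg cells, against 67.5, 88.7 and 54.5 RPKM in miR-27 Tg cells, with overlapping libraries and an adjusted p of 0.067. Ctla4, Ikzf2, Il10, Icos and Gata3 did not pass, with log2 differences between 0.01 (Icos) and 0.38 (Il10) and standard errors between 0.11 and 0.49.

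Of 39 genes of effector Treg cells, 2 rose and 3 fell, beside 3.5% rising and 3.35% falling over all genes. The transcription factors Irf4 and Maf, both needed for effector programmes of Treg cells, were among the falls. Irf4 had 39.4, 43.3 and 38.5 RPKM in cluster Tg cells, against 65.9, 61.4 and 59.6 RPKM in miR-27 Tg cells and 35.9 to 40.4 RPKM in WT cells (log2 difference −0.62, SE 0.07, adjusted p = 0.0004). Maf had 92.1, 83.9 and 71.4 RPKM in cluster Tg cells, against 134, 137 and 132 RPKM in miR-27 Tg cells and 44.2 to 48.0 RPKM in WT cells (−0.71, SE 0.14, adjusted p = 0.0089). Ccr4, a chemokine receptor for entry into skin and other tissues, had 47.4, 57.3 and 46.1 RPKM in cluster Tg cells, against 78.1, 94.0 and 84.4 RPKM in miR-27 Tg cells and 20.4 to 27.02 RPKM in WT cells. Cluster Tg was thus within the WT range or next to it for Irf4, and between WT and miR-27 Tg for Maf and Ccr4. Irf4 is also a marker of plasma cells, of which 8 markers summed to 137 to 155 RPKM in cluster Tg and 178 to 278 RPKM in miR-27 Tg libraries. That sum includes Irf4 itself and so is no separate measure of plasma cells, whose part was not tested. The Irf4 call remained with the B cell marker level as a covariate, whereas those of Maf and Ccr4 did not. Irf4 and Maf passed without any single library, and Ccr4 lost its call without cluster Tg library 1 or 3 or miR-27 Tg library 2 or 3.

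Of 25 TNF receptors and ligands, 4 rose and 1 fell, beside 3.5% rising and 3.35% falling over all genes, and 18 of the 25 had a positive difference. Tnfrsf9, the costimulatory receptor 4-1BB, had 117, 136 and 119 RPKM in cluster Tg cells, against 99.6, 85.1 and 64.5 RPKM in miR-27 Tg cells (log2 difference 0.60, SE 0.12, adjusted p = 0.013). Tnfsf11, which encodes RANKL, had 85.2, 60.3 and 54.3 RPKM in cluster Tg cells, against 50.1, 43.9 and 46.3 RPKM in miR-27 Tg cells (0.48, SE 0.12, adjusted p = 0.034). Tnfrsf18 and Cd70, described above, were the other rises, and the fall was Tnfrsf14, the receptor HVEM, with a difference of −0.63. Tnfrsf9 passed without any single library and Tnfsf11 lost its call without cluster Tg library 1 or miR-27 Tg library 2 or 3. The count of 4 rises was 1 without cluster Tg library 1, 1 without miR-27 Tg library 2 and 2 without miR-27 Tg library 3, and 0 with the B cell marker level as a covariate. The count of falls was 0 on leaving out any library except cluster Tg library 3, and 0 with no filter on low values and with either covariate. Of 29 genes of apoptosis and survival, Fas, Bcl2a1b and Bcl2a1d rose. Fas, the death receptor, had 36.9, 36.4 and 42.9 RPKM in cluster Tg cells, against 23.8, 21.4 and 22.1 RPKM in miR-27 Tg cells (0.77, SE 0.08, adjusted p = 0.00011). WT cells had 53.6 to 54.8 RPKM, so both genotypes were below WT and miR-27 Tg lay farther from it. Bcl2a1b, a BCL2-family survival gene, had 90.0, 89.4 and 87.4 RPKM in cluster Tg cells, against 64.9, 49.8 and 61.7 RPKM in miR-27 Tg cells. Bcl2a1b and Bcl2a1d are near-identical copies, and their separate values are uncertain. Fas and Bcl2a1b passed without any single library, Fas alone of the 3 passed with the B cell marker level as a covariate, and Bcl2a1d did not without cluster Tg library 1 or miR-27 Tg library 2.

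Among T helper genes, the Th1 list held 2 rises and the Th2 list 2 falls, beside 3.5% rising and 3.35% falling over all genes. Of 17 genes of the Th1 programme, Ifngr1, a chain of the interferon-gamma receptor, and Stat4, which signals for interleukin-12, rose, with log2 differences of 0.45 and 0.38. Neither passed without cluster Tg library 1 or without miR-27 Tg library 3, and Stat4 lost its call also without cluster Tg library 3 or miR-27 Tg library 2 and under median-of-ratios scaling. Of 12 Th2 genes the 2 falls were Maf and Ccr4. Of 16 Th17 genes none passed, with 3 at an unadjusted p under 0.05, beside 2777 of the 11520 genes tested. Of 15 follicular T cell genes, Il1r2, a decoy receptor for interleukin-1, rose: it had 147, 120 and 95.6 RPKM in cluster Tg cells, against 71.5, 58.1 and 68.1 RPKM in miR-27 Tg cells and 21.5 to 32.1 RPKM in WT cells (log2 difference 0.85, SE 0.18, adjusted p = 0.013). It lost the call without cluster Tg library 1 or miR-27 Tg library 2. Among 17 integrin genes Itgae rose and Itgam fell. Itgam, the CD11b chain, had 9.64, 6.61 and 3.53 RPKM in cluster Tg cells, against 16.0, 13.7 and 11.8 RPKM in miR-27 Tg cells and 0.437 to 0.777 RPKM in WT cells (−1.10, SE 0.30, adjusted p = 0.041). CD11b is also a defining myeloid protein. Within miR-27 Tg the order of Itgam was the reverse of that of the mean log2 level of the myeloid markers (1.51, 2.48 and 3.28). Within cluster Tg both were highest in library 1, and the part of myeloid cells was not tested. Itgam lost its call on leaving out cluster Tg library 2 or 3 or any miR-27 Tg library. Of 22 genes of resting T cells, Dapl1 rose while Tcf7, Igfbp4 and Actn1 fell. Actn1, the crosslinker alpha-actinin, had 37.9, 45.0 and 46.7 RPKM in cluster Tg cells, against 62.5, 70.4 and 75.3 RPKM in miR-27 Tg cells, and passed without any single library. Tcf7, a transcription factor of naive and memory T cells, lost its call whichever of the 6 libraries was left out, and Igfbp4 without cluster Tg library 1 or 2 or miR-27 Tg library 2 or 3. With the B cell marker level as a covariate, of the genes named in this group of lists Dapl1 alone passed.

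Over all genes 3.5% rose and 3.35% fell, and the counts of the following lists are to be read beside these shares. No gene passed among 19 of Treg suppression, 18 of killer receptors and cytotoxicity, 25 of T cell receptor signalling, 21 of NF-kB, 21 of cholesterol synthesis, 7 CDK inhibitors, 15 of the microRNA machinery and 46 ribosomal proteins. At an unadjusted p under 0.05 they held 5, 4, 9, 3, 2, 0, 1 and 6 genes, in the same order, beside 2777 of the 11520 genes tested. Their median differences ran from −0.12 for cholesterol synthesis to 0.16 for ribosomal proteins and NF-kB. In single libraries some of these genes differed widely: Gzmb, the protease granzyme B, had 33.3, 20.6 and 12.5 RPKM in cluster Tg cells, against 3.49, 10.5 and 13.8 RPKM in miR-27 Tg cells (adjusted p = 0.073). Of 20 immediate-early genes, which respond within minutes to T cell receptor or stress signals, 17 had a positive difference and the median was 0.91, but only Dusp2 rose, while Egr3 fell. Dusp2, a phosphatase of MAP kinases, had 207, 227 and 185 RPKM in cluster Tg cells, against 130, 128 and 85.5 RPKM in miR-27 Tg cells and 216 to 281 RPKM in WT cells (log2 difference 0.87, SE 0.16, adjusted p = 0.0075). Egr3, a transcription factor of the same response, had 15.6, 14.7 and 14.8 RPKM in cluster Tg cells, against 20.6, 18.6 and 19.1 RPKM in miR-27 Tg cells, a small gap that lost the call without any library except miR-27 Tg library 1. The mean log2 level of the list was 6.51, 6.68 and 5.66 in cluster Tg libraries, 5.91, 5.68 and 4.69 in miR-27 Tg libraries and 6.48, 6.32 and 5.56 in WT libraries, so library 3 was lowest within each of the 3 genotypes. In metabolism, Slc2a3, a glucose transporter, and Pdk1, which restrains pyruvate entry into mitochondria, rose among 20 glycolysis genes and Hk1, a hexokinase, fell. Among 22 antioxidant genes Sod2 rose and Txnrd1 and G6pdx fell, and Gbp6, a guanylate-binding protein, was the 1 rise among 51 interferon-response genes. Of these, Sod2 and G6pdx passed without any single library, Hk1 lost its call without miR-27 Tg library 3, Pdk1 without cluster Tg library 3 or miR-27 Tg library 2, Gbp6 without cluster Tg library 2 or 3 or miR-27 Tg library 2 or 3, and Slc2a3 and Txnrd1 without any library except miR-27 Tg library 1. Of 16 genes of TGF-beta signalling, Ski, a corepressor of SMAD proteins, fell, with a log2 difference of −0.37, and lost the call without cluster Tg library 1 or miR-27 Tg library 2. With the B cell marker level as a covariate, G6pdx alone passed of the genes called in the lists from the immediate-early genes on.

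Of 30 S phase genes 5 fell and none rose, beside 3.35% falling and 3.5% rising over all genes, and the other 25 did not pass. All 30 had a negative difference, with a median of −0.50 on the log2 scale. Dnmt1, the maintenance DNA methyltransferase, had 26.6, 31.7 and 31.2 RPKM in cluster Tg cells, against 51.2, 78.2 and 77.7 RPKM in miR-27 Tg cells and 32.7 to 40.3 RPKM in WT cells (log2 difference −1.17, SE 0.15, adjusted p = 0.00097). Mcm2, a subunit of the replicative helicase, had 39.6, 42.1 and 38.1 RPKM in cluster Tg cells, against 45.8, 65.5 and 58.9 RPKM in miR-27 Tg cells. The other falls were Mcm4 of the same helicase, the DNA ligase Lig1 and the chromatin assembly subunit Chaf1a. Of 30 genes of mitosis none passed in limma and 14 had an unadjusted p under 0.05, beside 2777 of the 11520 genes tested. All 30 differences were negative with a median of −0.89. Mki67, a marker of proliferating cells, shows the pattern: 31.0, 28.1 and 31.1 RPKM in cluster Tg cells, against 31.9, 82.6 and 71.7 RPKM in miR-27 Tg cells and 5.69 to 11.8 RPKM in WT cells (adjusted p = 0.11). miR-27 Tg library 1 was at the level of the cluster Tg libraries, and miR-27 Tg libraries 2 and 3 were more than 2-fold above it.

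The same library stood apart for the whole of both lists. The mean log2 level of the mitosis genes was 3.32, 3.08 and 3.49 in cluster Tg libraries, 3.27, 4.60 and 4.55 in miR-27 Tg libraries and 1.46, 2.09 and 2.39 in WT libraries. For the S phase genes it was 4.27, 4.23 and 4.31 in cluster Tg libraries, 4.28, 5.06 and 5.05 in miR-27 Tg libraries and 3.49, 3.84 and 3.94 in WT libraries. Without miR-27 Tg library 1, 19 S phase genes and 16 mitosis genes passed as lower in cluster Tg cells. Without either miR-27 Tg library 2 or 3, 1 S phase gene and no mitosis gene did, and leaving out cluster Tg library 1, 2 or 3 left 1, 2 and 1 S phase genes. Dnmt1 passed without any single library and with the B cell marker level as a covariate, and Mcm2, Mcm4 and Lig1 did not. The B cell markers moved with these lists: their mean log2 level was 1.96, 1.91 and 2.50 in cluster Tg libraries and 2.43, 3.37 and 4.07 in miR-27 Tg libraries, all 18 tested had a negative difference, and 1, Cd22, was called. miR-27 Tg libraries 2 and 3 were also the 2 of that genotype without Xist. Which of cell division, other cells in the sort or the mice of each library the difference belongs to was not tested.

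**Figure D3:**
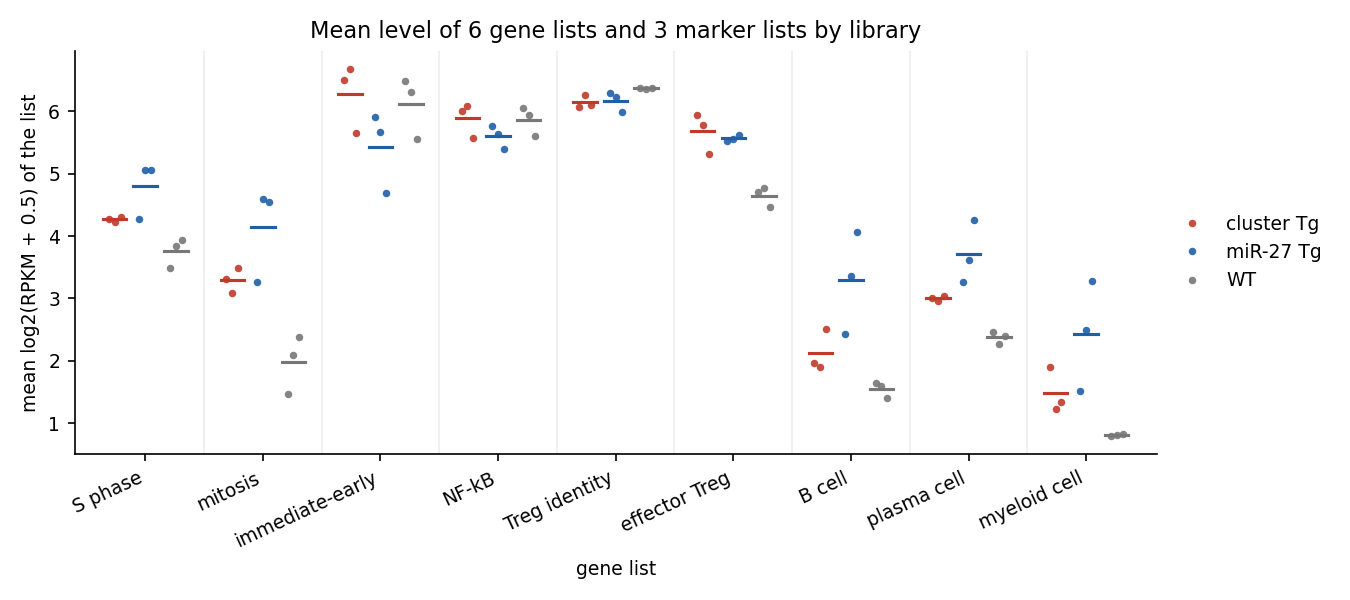
Mean log2(RPKM + 0.5) of 6 gene lists and 3 marker lists of other cell types (horizontal axis) in 3 libraries each of cluster Tg, miR-27 Tg and WT; points are libraries and bars are group means. For S phase, mitosis, B cell and myeloid genes 1 miR-27 Tg library lies at the level of cluster Tg and the other 2 lie above, and for immediate-early genes library 3 is the lowest in each genotype.

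Genes with seed matches were examined by their annotated 3′ UTR, on which the expression values had no influence. A 3′ UTR was available for 10591 of the tested genes (GENCODE M21, GRCm38), of which 3.63% were called higher and 3.56% lower in cluster Tg cells. A match to miR-23 was held by 16.4% of these genes, to miR-24 by 19.1% and to miR-27 by 17.2%. Of 1732 genes with a miR-23 match, 48 (2.77%) were higher and 120 (6.93%) lower. Of 2018 genes with a miR-24 match, 38 (1.88%) were higher and 127 (6.29%) lower. The 301 genes with matches to both and none to miR-27 held 9 higher and 32 lower genes, 10.6% of the group. Genes with a miR-27 match stood near the background in both directions, 73 (4.01%) higher and 69 (3.79%) lower of 1821. Where they had no match to the other members, 53 (5.24%) were higher and 21 (2.08%) lower of 1012. Of 6288 genes with no match 257 (4.09%) were higher and 158 (2.51%) lower.

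**Figure D4:**
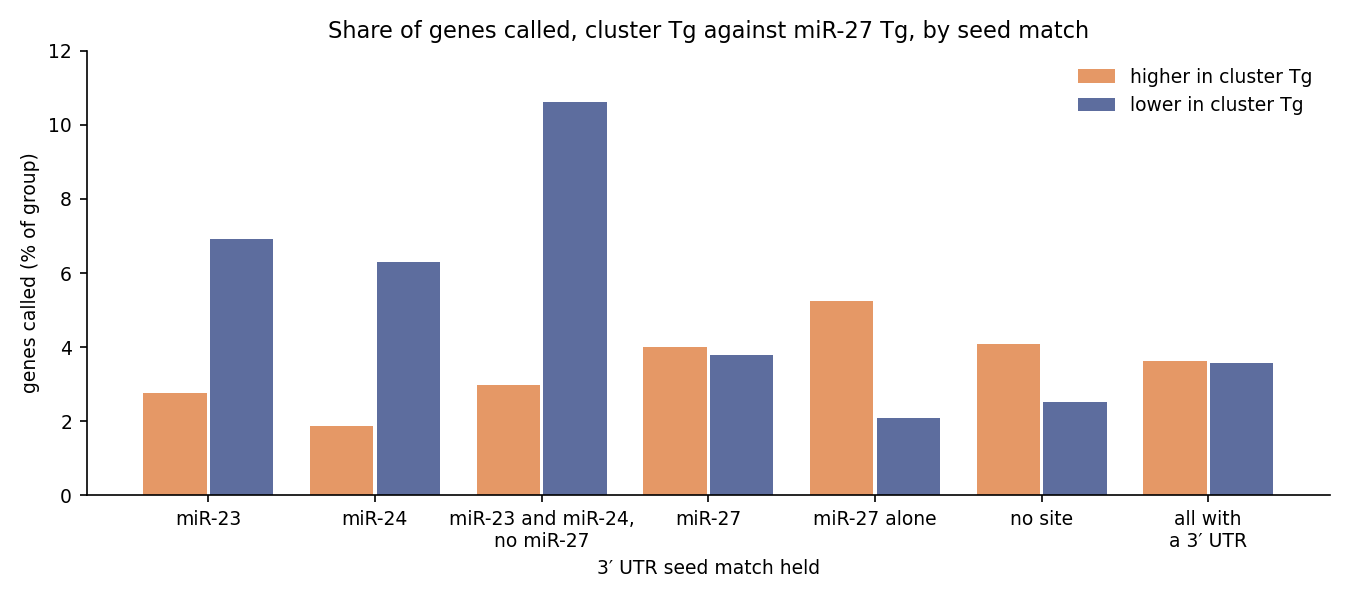
Percentage of genes called higher (left bar) and lower (right bar) in cluster Tg than in miR-27 Tg cells, for genes grouped by the seed match in the 3′ UTR. Lower calls outnumber higher calls in the miR-23 and miR-24 groups and reach 10.6% in genes with both and none to miR-27. In genes whose match is to miR-27 alone 5.24% are higher and 2.08% lower, and genes with no match lean the same way (4.09% higher and 2.51% lower).

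The shift of these groups as a whole was small. The median log2 difference was −0.04 for miR-23 matches and −0.05 for miR-24 matches, 0.005 for miR-27 matches, 0.04 for matches to miR-27 alone and 0.02 for genes without a match. Between libraries of a genotype the median of each of these groups varied by an SD of up to 0.04. Genes with matches to both miR-23 and miR-24 and none to miR-27 had a median of −0.08 and an SD of up to 0.06. Per library, the median level relative to WT of genes with a miR-24 match, less that of genes with no match, was −0.11, −0.05 and −0.11 in cluster Tg libraries and 0.02, 0.01 and −0.03 in miR-27 Tg libraries. For miR-23 matches it was −0.111, −0.070 and −0.052 in cluster Tg libraries and 0.029, −0.0001 and −0.048 in miR-27 Tg libraries, so the genotypes were apart for both, closely so for miR-23. For miR-27 matches it was −0.12, −0.07 and −0.07 in cluster Tg libraries and −0.02, −0.08 and −0.11 in miR-27 Tg libraries, which overlapped. Matches to miR-27 alone overlapped too, with −0.11, −0.06 and −0.06 in cluster Tg and −0.05, −0.12 and −0.13 in miR-27 Tg libraries. Genes with a match had longer 3′ UTRs, with medians of 2452 bases for miR-23, 2225 for miR-24 and 2285 for miR-27 against 724 for genes with no match. The part of 3′ UTR length in the shares was not tested. An 8-base match, with an A after the seed, gave medians of −0.07, −0.06 and 0.02 for miR-23, miR-24 and miR-27.

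The sites shown are from the called genes with the smallest p-values in a direction set beforehand for each microRNA. That direction was lower in cluster Tg cells for miR-23 and miR-24 matches and higher for miR-27 matches. Irf4, listed for its miR-23 match, also holds 1 miR-27 match, although it fell. Each stretch is the transcript's strand in GRCm38, 5′ to 3′, with the letters that pair with the seed in capitals.
Top1, miR-24 match at chr2:160721697-160721720, plus strand: tactataagggagagCTGAGCCag
Top1, miR-23 match at chr2:160722169-160722192, plus strand: gagtgttcctttttaAATGTGAat
Top1, miR-23 match at chr2:160722579-160722602, plus strand: aaaaaggaaaattttAATGTGAag
Marcksl1, miR-24 match at chr4:129515564-129515587, plus strand: ctgcttctcaaccccCTGAGCCag
Marcksl1, miR-23 match at chr4:129515793-129515816, plus strand: gggagggaggtctgtAATGTGAaa
Vrk3, miR-23 match at chr7:44777366-44777389, plus strand: tgagtcatgtcatgtAATGTGAaa
Irf4, miR-23 match at chr13:30766138-30766161, plus strand: cctgcagacaggctgAATGTGAgc
8430419L09Rik, miR-23 match at chr6:135236182-135236205, plus strand: ggaagtaaggtttaaAATGTGAac
G6pdx, miR-24 match at chrX:74409925-74409948, minus strand: caccactggccctatCTGAGCCac
Aars, miR-24 match at chr8:111056491-111056514, plus strand: gcgcgcgccgggctgCTGAGCCag
Alg2, miR-24 match at chr4:47470941-47470964, minus strand: aatagaacattagatCTGAGCCcg
Fbxo32, miR-27 match at chr15:58177723-58177746, minus strand: atgtgtgaattttcaACTGTGAtt
Vmac, miR-27 match at chr17:56714649-56714672, minus strand: tggtcactgccctgtACTGTGAtt
2410004B18Rik, miR-27 match at chr3:145944183-145944206, plus strand: aatatattgtattgtACTGTGAac
A match is a description of the letters and was not tested as a binding site. Where a capital stretch is followed by a, the match is of the longer 8-base kind, as at the 2 miR-23 matches of Top1.

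Top1, the DNA topoisomerase that relaxes supercoils ahead of polymerases, holds 2 matches each to miR-23 and miR-24 in a 3′ UTR of 1210 bases. It had 33.9, 36.9 and 33.0 RPKM in cluster Tg cells, against 54.4, 57.3 and 56.1 RPKM in miR-27 Tg cells and 36.4 to 43.4 RPKM in WT cells (log2 difference −0.69, SE 0.07, adjusted p = 8.52e-05). Vrk3, a member of the vaccinia-related kinase family, had 26.7, 29.6 and 28.7 RPKM in cluster Tg cells, against 44.7, 43.2 and 50.3 RPKM in miR-27 Tg cells and 50.9 to 55.1 RPKM in WT cells (−0.69, SE 0.07, adjusted p = 8.52e-05). The 2 genes fell by the same amount against miR-27 Tg. Against WT, limma called both lower in cluster Tg, by different amounts. The log2 difference from WT was −0.21 for Top1 (adjusted p = 0.034), with overlapping libraries, and −0.89 for Vrk3 (adjusted p = 5.9e-06). The transcript 8430419L09Rik, with 3 miR-23 matches, had 3.26, 3.86 and 3.41 RPKM in cluster Tg cells, against 7.34, 8.94 and 10.3 RPKM in miR-27 Tg cells and 7.80 to 8.58 RPKM in WT cells (−1.21, SE 0.11, adjusted p = 6.51e-05). G6pdx, the enzyme that opens the pentose phosphate pathway, had 12.6, 12.7 and 13.3 RPKM in cluster Tg cells, against 20.2, 26.6 and 22.4 RPKM in miR-27 Tg cells and 17.8 to 20.9 RPKM in WT cells (−0.81, SE 0.10, adjusted p = 0.00097). For these 2 genes the cluster Tg libraries were below every library of miR-27 Tg and of WT. Aars, which charges alanine transfer RNA, had 25.3, 23.4 and 22.4 RPKM in cluster Tg cells, against 33.3, 37.7 and 42.9 RPKM in miR-27 Tg cells and 22.7 to 24.9 RPKM in WT cells. Alg2, a mannosyltransferase of N-glycan assembly, had 6.80, 6.43 and 6.72 RPKM in cluster Tg cells, against 10.7, 9.97 and 10.6 RPKM in miR-27 Tg cells and 6.73 to 7.97 RPKM in WT cells. Irf4 and Marcksl1, with matches shown above, were like Aars: their cluster Tg libraries were at or near WT and their miR-27 Tg libraries above it.

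The 5 genes with a miR-27 match and a rise in cluster Tg cells were taken by smallest p, which favours libraries that lie close together. Fbxo32, the ubiquitin ligase atrogin-1, had 7.20, 6.96 and 6.19 RPKM in cluster Tg cells, against 4.503, 3.42 and 3.52 RPKM in miR-27 Tg cells and 6.18 to 6.87 RPKM in WT cells (log2 difference 0.76, SE 0.11, adjusted p = 0.0015). Its 3′ UTR of 5587 bases also holds 2 matches to miR-23. Vmac, a protein associated with vimentin, had 5.33, 5.51 and 5.66 RPKM in cluster Tg cells, against 4.10, 2.93 and 2.71 RPKM in miR-27 Tg cells and 6.79 to 8.12 RPKM in WT cells (0.70, SE 0.12, adjusted p = 0.0053). The transcript 2410004B18Rik had 20.1, 21.4 and 20.9 RPKM in cluster Tg cells, against 14.9, 14.3 and 14.5 RPKM in miR-27 Tg cells and 22.2 to 24.8 RPKM in WT cells (0.50, SE 0.07, adjusted p = 0.0011). In these 3 genes miR-27 Tg was the lowest genotype, and cluster Tg lay between it and WT for Vmac and 2410004B18Rik and in or just above the WT range for Fbxo32. In 2610301B20Rik and 6330419J24Rik, the other 2 of the 5, cluster Tg was instead the highest, with 5.67 to 6.45 RPKM in cluster Tg, 3.33 to 3.87 RPKM in miR-27 Tg and 3.14 to 3.33 RPKM in WT cells for 2610301B20Rik. All 13 named genes with matches passed whichever of the 6 libraries was left out, and all 13 lost the call when the fit held only those 6 libraries. With the B cell marker level as a covariate, Fbxo32, Vmac and 6330419J24Rik did not pass and the other 10 did.

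**Figure D5:**
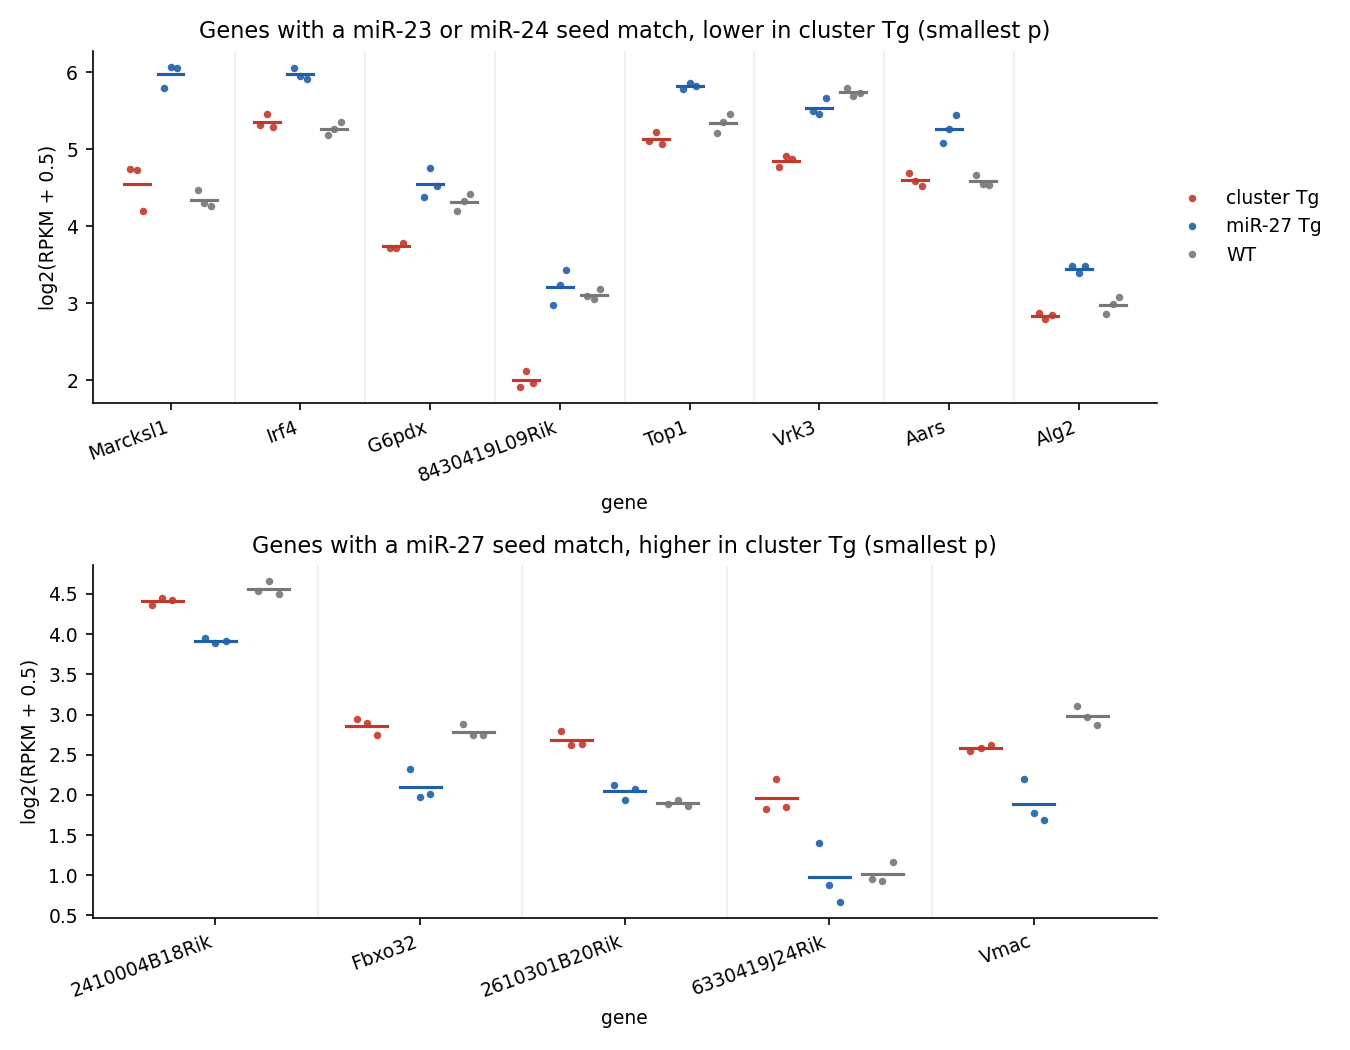
RPKM on a log2 scale (vertical axis, 0.5 RPKM added) of the genes with a miR-23 or miR-24 match that were lower (top) and with a miR-27 match that were higher (bottom) in cluster Tg than in miR-27 Tg cells; points are the 3 libraries of each of cluster Tg, miR-27 Tg and WT and bars are group means. Cluster Tg lies below WT for Vrk3, 8430419L09Rik and G6pdx and near WT for Aars and Irf4, and miR-27 Tg is lowest for Fbxo32, Vmac and 2410004B18Rik.

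Published targets of the 3 microRNAs, a list compiled from background knowledge, held 2 rises and 2 falls, beside 3.5% rising and 3.35% falling over all genes. Of 12 such targets of miR-24, H2afx and Furin fell and none rose, with a median log2 difference of −0.31. Furin, the protease that releases active TGF-beta, had 25.3, 28.0 and 21.7 RPKM in cluster Tg cells, against 36.1, 40.7 and 46.2 RPKM in miR-27 Tg cells and 22.8 to 28.9 RPKM in WT cells (log2 difference −0.70, SE 0.13, adjusted p = 0.0080). Furin passed without any single library, and neither Furin nor H2afx passed with the B cell marker level as a covariate. This list holds several genes of cell division, among them Aurkb, which had 10.4, 10.97 and 10.5 RPKM in cluster Tg cells, against 11.6, 31.4 and 28.6 RPKM in miR-27 Tg cells (adjusted p = 0.21) and so followed the library pattern of the mitosis genes. Of 11 targets of miR-23, only Fas was called, and it was higher in cluster Tg cells. Of 11 targets of miR-27, Zbtb10, a zinc finger repressor, rose: it had 1.28, 2.37 and 1.42 RPKM in cluster Tg cells, against 0.789, 0.379 and 0.380 RPKM in miR-27 Tg cells and 2.50 to 4.72 RPKM in WT cells (1.10, SE 0.29, adjusted p = 0.036). Its annotated 3′ UTR of 4300 bases held no miR-27 match by the search above and 1 match to miR-23. It lost the call on leaving out any library except miR-27 Tg library 1, and with the B cell marker level as a covariate. Rel, the NF-kB subunit c-Rel, had 31.6, 41.7 and 24.8 RPKM in cluster Tg cells, against 24.8, 23.9 and 17.9 RPKM in miR-27 Tg cells, and Ppif, the mitochondrial cyclophilin, had 8.77, 9.94 and 8.92 RPKM in cluster Tg cells, against 10.1, 8.12 and 8.98 RPKM in miR-27 Tg cells. Neither passed (adjusted p = 0.30 and 0.91), and for Ppif both genotypes were far below the 23.1 to 25.8 RPKM of WT cells.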

How the data were processed

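The authors deposited 1 table of RPKM values for 18 libraries, 3 for each of 6 genotypes. Per the labels' protocols, RNA was purified by a method that keeps small RNAs, made into TruSeq RNA libraries and sequenced on an Illumina instrument. The submitters' processing notes name STAR 2.2.0c, HOMER and build mm10 (GRCm38). The annotation and strand setting are not given in the sources used here, so overlapping and antisense genes, near-identical copies and microRNA hairpins inside host genes are uncertain. Counts were not used here. Steps between low RPKM values gave whole reads (within 0.03) for 17.3 to 22.8% of low values, so depth is unknown and precision rests on the spread between libraries.

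Entries with a repeated symbol (4) were left out. Genes with at least 1 RPKM in 3 libraries were fitted with limma 3.58.1 (R 4.3.3) on log2(RPKM + 0.5) with a mean-variance trend, all 18 libraries and no covariate. This pseudocount understates changes of low genes. Calls used a Benjamini-Hochberg adjusted p under 0.05 over 11520 genes. The fit was tested on simulated data. Hairpins were compared by an exact permutation test. Symbols were matched to GENCODE M21 and RefSeq, 22635 directly and 921 by synonym, with 393 unmatched. The longest annotated 3′ UTR of at least 50 bases was searched on the transcript strand only. The letters searched were AATGTGA for miR-23, ACTGTGA for miR-27 and CTGAGCC for miR-24, and no base can start more than 1 of them. Named genes were the 12 that rose and the 12 that fell the most among called genes with libraries that did not overlap (without predicted genes, clones, small RNAs and antigen receptors), a panel of 17 genes, up to 4 genes per list by p, the hairpins, and 5 genes per match group by p. The last were called genes of 1 direction only, lower in cluster Tg cells for miR-23 and miR-24 matches and higher for miR-27 matches. Tnfrsf14, Chaf1a and Cd22 are named outside these rules. One named result is not reported here. The comparison, gene lists and marker lists were chosen with earlier results of these data known. Same-numbered libraries were not paired by the labels. Alternatives were 2 pseudocounts (0.1 and 1), no filter, median-of-ratios scaling, no trend, a replicate block, only the 6 libraries, each library left out, and 2 stricter match rules. Covariates for the B cell markers and for Xist were added after the data were seen.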

Additional observations from a re-analysis of the deposited data

How the results depend on the processing

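The direction of the 3 hairpin entries held under scaling and without each library, and the median difference of each match group moved by less than its spread between libraries under every alternative run. The main counts were 403 higher and 386 lower genes. They came to 27 and 27 with the B cell marker level as a covariate, 266 and 243 with a term for Xist-expressing libraries, and 3 and 2 with only the 6 libraries in the fit. There the residual degrees of freedom were 4 in place of 12, while the median standard error of the 789 genes was 0.12 in place of 0.11, and 2075 genes had an unadjusted p under 0.05. Leaving out a library gave 131 to 551 higher and 137 to 668 lower genes. Both pseudocounts, no filter, scaling and no trend kept both counts within 1.5 times. Scaling gave 362 higher and 421 lower genes. With a replicate block 509 higher and 483 lower genes passed. Same-numbered cluster Tg and miR-27 Tg libraries had correlations of deviations of −0.002, 0.07 and 0.09 over all genes tested. A correlation over all genes cannot show an effect shared by a part of them. For the immediate-early list library 3 was lowest in each genotype (mean log2 level 5.66 in cluster Tg, 4.69 in miR-27 Tg and 5.56 in WT). Pairing was not tested further. Of 70 named called genes, 20 passed with the B cell covariate, 56 with the Xist term, 1 with only the 6 libraries and 36 to 66 without a library. No named called gene changed sign. Read depth is unknown, and low genes and short hairpin entries are the least certain.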
